A study of Mus musculus with 8 samples.

Results

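The genes examined were 9 that carry out MHC class I antigen presentation: the heavy chains H2-K1 and H2-D1, the light chain B2m, the peptide transporter subunits Tap1 and Tap2, the loading factor Tapbp, the immunoproteasome subunits Psmb8 and Psmb9, and the transcriptional activator Nlrc5. They were taken by symbol from the rows of a table of single hematopoietic stem cells (HSCs), and all 9 were among its 10720 genes. The rule used their symbols and not their values.

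MHC class I molecules display short peptides from proteins made inside the cell, so that CD8+ T cells and NK cells can inspect them. The peptides are cut by the proteasome, whose catalytic subunits can be replaced by the immunoproteasome subunits, and are pumped into the endoplasmic reticulum by the Tap1 and Tap2 transporter. Tapbp, also called tapasin, holds the empty heavy chain and B2m next to the transporter until a peptide binds. Interferons raise the transcription of most of these genes, through IRF and STAT factors and through Nlrc5, which acts at class I promoters together with RFX, CREB and NF-Y proteins. Nearly all nucleated cells, HSCs included, carry class I molecules.

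Control mice (WT) were C57BL/6 adults with 2 floxed Med23 alleles (Med23 L/L) and no Cre transgene. The KO mice were Med23 L/L littermates that carried Mx1-cre, in which poly(I:C) was injected to delete Med23, a subunit of the Mediator complex. The Mx1 promoter that drives Cre responds to interferon, which poly(I:C) induces, and it is active in many cell types besides HSCs. Whether the WT mice of this experiment were injected as well, and how long after the last injection the cells were taken, was not given in the sources used here for the single-cell samples. Cells were sorted from bone marrow as LSK CD150+CD34-CD48- cells (LSK is lineage-negative, Sca1-positive and c-Kit-positive), picked by hand, and read from the 3′ end of each messenger RNA with a unique molecular identifier (UMI), so that each molecule was counted once. There were 4 libraries per genotype, which the table does not tell apart, so each label was 1 pooled sample, and the differences given here were neither checked in replicates nor tested.

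After cells with under 2000 genes or 20000 UMIs were left out, 259 of 304 cells labelled WT and 234 of 282 labelled KO were used, with 21475782 and 16180546 UMIs in all. The UMIs per cell ran from 20038 to 496293 (median 59649) under the WT label and from 20027 to 467384 (median 50281) under the KO label. Levels are given in CPM, UMIs of a gene per 1000000 UMIs of the pool or cell, and do not scale with transcript length. All intervals are 95% intervals that cover counting error only. Med23 was counted 122 times under the WT label and 117 times under the KO label, a log2 ratio of 0.35 (-0.03 to 0.73), so the targeted gene was not lower under the KO label in the pooled counts. A single cell held 28 of the 117 UMIs under the KO label. A UMI of Med23 was found in 18.1% of WT cells and 11.5% of KO cells, or 7.34% and 6.41% after thinning to 20000 UMIs, with overlapping intervals. The authors report efficient loss of Med23 in the hematopoietic system of such mice after poly(I:C). Which exons lie between the loxP sites was not given in the sources used here, so a count from the 3′ end may not read the deletion, and directions are given for the KO label relative to the WT label. Of the sorted surface markers, Kit and Ly6a (Sca1) were present in both pools, at 157 and 273 CPM in WT and 115 and 189 CPM in KO, whereas Slamf1 (CD150) was at 39.0 and 8.16 CPM and Cd34 at 178 and 304 CPM. The pools also differed in transcripts of oocyte genes, at 2525 CPM over 26 genes in WT and 149 CPM in KO. In all, 69 of the cells labelled WT and 3 of those labelled KO held over 1000 CPM of them, and the log2 ratios of the 9 genes are also given without these cells.

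Promoters are shown because class I genes are known for promoter elements that several of them share. Those of both heavy chains, B2m and Tap1 are printed, as they represent the molecule and its transporter. RefSeq promoters of build GRCm38.p6 were found for 7 of the 9 genes. Tap2 and Nlrc5 had no entry. The counts themselves were made by the authors on build mm9, and these coordinates are not those of mm9. For these 4 the 200 bases before the start are printed 5′ to 3′ on the gene's strand, with capitals where the letters of a searched motif, on either strand, were found.
H2-K1, chr17:34000348-34000547, minus strand: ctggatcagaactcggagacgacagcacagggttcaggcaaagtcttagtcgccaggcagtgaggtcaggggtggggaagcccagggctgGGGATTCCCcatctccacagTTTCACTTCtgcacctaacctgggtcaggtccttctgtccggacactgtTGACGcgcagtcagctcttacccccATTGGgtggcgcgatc
H2-D1, chr17:35262894-35263093, plus strand: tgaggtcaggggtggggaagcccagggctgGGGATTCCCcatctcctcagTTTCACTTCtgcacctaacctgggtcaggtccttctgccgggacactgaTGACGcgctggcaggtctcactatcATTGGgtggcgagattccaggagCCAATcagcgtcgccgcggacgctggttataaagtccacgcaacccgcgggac
B2m, chr2:122147487-122147686, plus strand: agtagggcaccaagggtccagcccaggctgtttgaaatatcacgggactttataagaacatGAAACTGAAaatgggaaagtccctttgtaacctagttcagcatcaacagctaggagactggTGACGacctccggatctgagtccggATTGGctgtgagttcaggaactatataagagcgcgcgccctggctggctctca
Tap1, chr17:34187356-34187555, plus strand: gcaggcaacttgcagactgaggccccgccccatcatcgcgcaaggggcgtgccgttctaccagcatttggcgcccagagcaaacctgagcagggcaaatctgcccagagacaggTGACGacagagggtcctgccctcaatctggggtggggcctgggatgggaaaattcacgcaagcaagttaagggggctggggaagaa

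The letters GAANNGAAA and GAAANNGAA, which IRF and STAT complexes bind, were searched on both strands. The former was found before H2-K1 and H2-D1 and in 5.0% of 27025 promoters of the same length, and the latter before B2m and in 5.62%. The NF-kB letters GGGATTCCC stood before H2-K1 and H2-D1, and in 0.222% of promoters. TGACG, the core of the X2 element to which CREB and ATF1 bind, was found in 5 of the 7 (H2-K1, H2-D1, B2m, Tap1 and Psmb9) and in 15.8% of all promoters. CCAAT, the NF-Y box, was also found in 5 (H2-K1, H2-D1, B2m, Tapbp and Psmb9) and in 30.02% of all promoters. Both stood together in 4 of the 7 and in 5.14% of all. In H2-K1 and H2-D1, the NF-kB letters, the IRF letters, TGACG and CCAAT followed each other in the same order towards the start. The printed windows of these 2 genes are nearly alike over this stretch, so their shared matches are not separate observations. H2-K1 had 2 starts, and the first listed was used. Tap1 and Psmb9 are transcribed away from each other from starts 225 bases apart, so their windows share 175 bases and the single TGACG there counts for both. Psmb8 held none of these letters in this window. A match describes the letters and is not evidence that a factor binds there.

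All 9 genes had a higher level in the pool labelled KO, by 1.27-fold (H2-D1) to 1.76-fold (Psmb9). Of the 9325 genes that averaged 0.5 UMI per cell or more, 52.8% were higher by any size, and the median log2 ratio was 0.03, against 0.55 for the 9. Their summed level was 12816 CPM in WT and 17006 CPM in KO, a log2 ratio of 0.41 (0.40 to 0.42). A ratio above 1.5-fold, or 0.58 on the log2 scale, was reached by 3 of the 9, Tap2, Psmb9 and Nlrc5, and by 15.6% of all 9325 genes, while 12.5% were lower by as much. Of the 5443 genes that averaged 2 UMIs or more, 10.4% were higher by over 1.5-fold. Tapbp at 0.57 and Tap1 at 0.55 lay just inside 1.5-fold. The central 50% of all genes ran from -0.28 to 0.38 on the log2 scale, so the ratios of H2-K1 and H2-D1 lay within it and those of the other 7 above it.

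**Figure D1:**
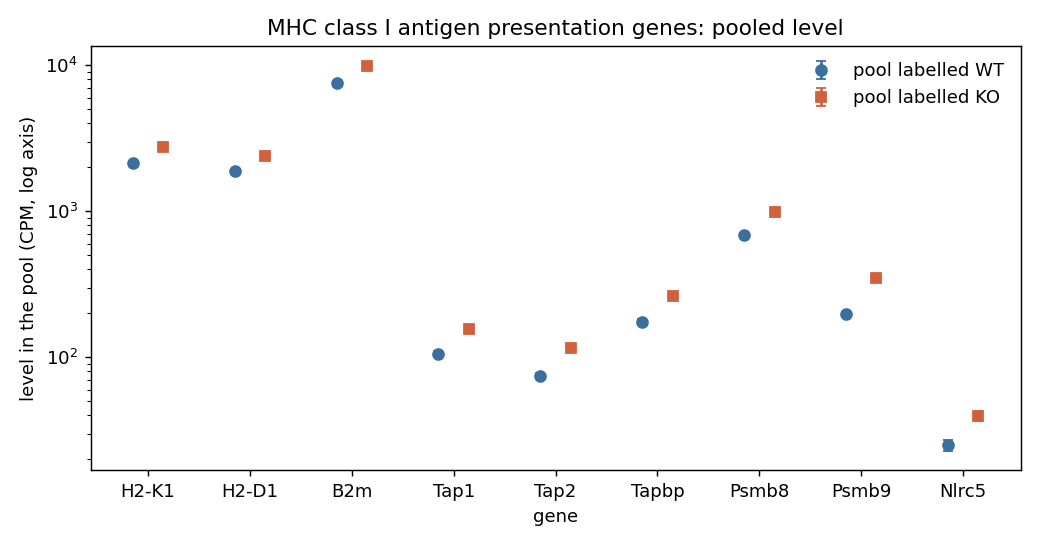
Level of each gene in CPM on a log axis, in the pools labelled WT (circles, 259 cells) and KO (squares, 234 cells). Bars are 95% Poisson intervals and are mostly smaller than the symbols. The KO point lies above the WT point for all 9 genes, which span from 24.9 CPM for Nlrc5 (in WT) to 9955 CPM for B2m (in KO).

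B2m, the light chain shared by every class I molecule, was the most abundant of the 9, with 162024 UMIs or 7545 CPM in WT and 161072 UMIs or 9955 CPM in KO, and it ranked 4th by level among all genes. Its log2 ratio was 0.40 (0.39 to 0.41). H2-K1, the classical K heavy chain, stood at 2130 CPM (45744 UMIs) in WT and 2752 CPM (44536 UMIs) in KO, with a log2 ratio of 0.37 (0.35 to 0.39). H2-D1, the classical D heavy chain, stood at 1878 CPM (40335 UMIs) and 2384 CPM (38579 UMIs), with a log2 ratio of 0.34 (0.32 to 0.36). The heavy chains and the light chain thus differed between the pools by nearly the same factor, 1.27 to 1.32. Heavy chains made up 34.7% of the UMIs of all 3 genes in WT and 34.04% in KO, and H2-K1 made up 53.1% and 53.6% of heavy chain UMIs. These ratios were moderate beside all genes but stood near the top among abundant ones. Among 128 genes with a level above 1000 CPM, the median log2 ratio was -0.10 and the 5th and 95th percentiles were -0.31 and 0.38, and B2m, H2-K1 and H2-D1 ranked 6th, 8th and 9th from the highest.

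Over single cells, every cell of both labels held all 3 genes. B2m ran from 1561 to 16454 CPM with a median of 7427 in cells labelled WT, and from 4206 to 25034 CPM with a median of 9635 in cells labelled KO. H2-K1 ran from 425 to 5883 CPM (median 1983) and from 360 to 6684 CPM (median 2677). H2-D1 ran from 67.7 to 5169 CPM (median 1712) and from 662 to 4801 CPM (median 2224). The cells of the 2 labels overlapped widely for each gene, but the higher level was spread over many cells. In the pool labelled KO, 83.8% of cells lay above the WT median of B2m, 75.2% above that of H2-K1 and 73.9% above that of H2-D1. For the sum of the 9 genes this share was 87.6%, or 205 of 234 cells.

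**Figure D2:**
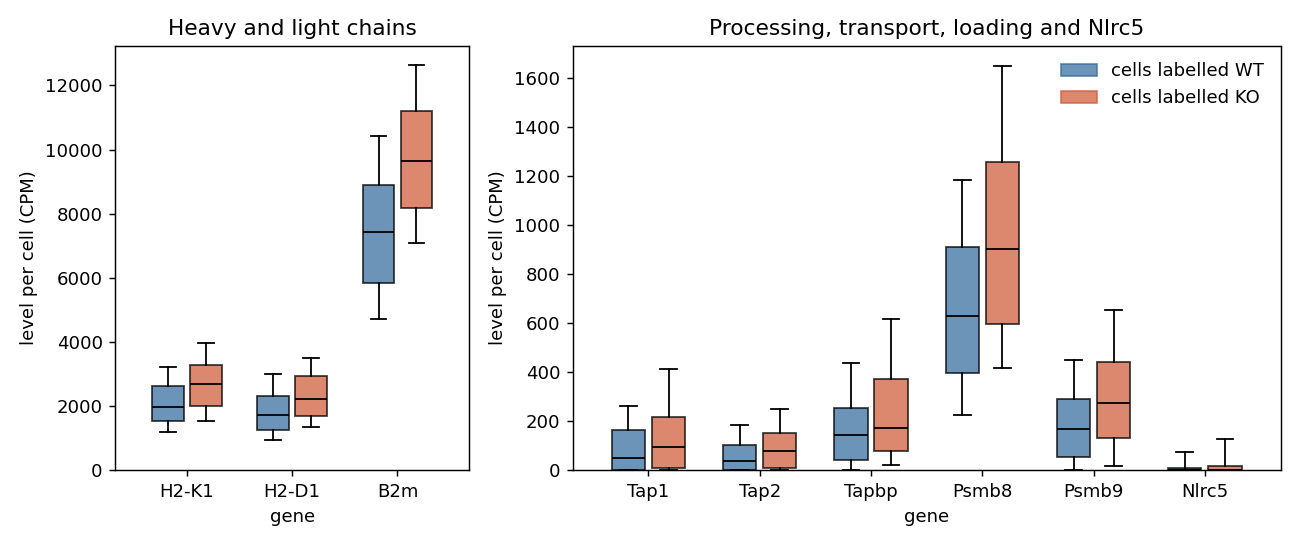
Level per cell in CPM of the heavy and light chains (left) and of the other genes (right), for 259 cells labelled WT and 234 labelled KO. Boxes span the quartiles with the median as a line, whiskers run from the 10th to the 90th percentile, and cells are not replicates. The boxes overlap for each gene, and the KO median is the higher in each panel except for Nlrc5, where both medians are 0.

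The transporter and loading genes were less abundant and had larger ratios. Tap1 stood at 106 CPM (2276 UMIs) in WT and 155 CPM (2508 UMIs) in KO, a log2 ratio of 0.55 (0.47 to 0.63). Tap2, the partner with which Tap1 forms the transporter, stood at 74.7 CPM (1604 UMIs) and 116 CPM (1870 UMIs), a log2 ratio of 0.63 (0.53 to 0.73). The intervals of the 2 subunits overlapped, and Tap1 made up 58.7% of their joint UMIs in WT and 57.3% in KO. Tapbp stood at 176 CPM (3772 UMIs) and 261 CPM (4220 UMIs), a log2 ratio of 0.57 (0.51 to 0.63). The counting intervals of all 3 lay above those of B2m, H2-K1 and H2-D1.

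In single cells these genes were often at 0, as their counts were low. Tap1 had a median of 50.9 CPM in WT cells, with 66 of 259 at 0 and a highest value of 684, and of 93.1 CPM in KO cells, with 54 of 234 at 0 and a highest value of 1351. Tap2 had medians of 38.7 and 77.7 CPM, with 85 and 56 cells at 0. Tapbp had medians of 143 and 172 CPM, with 29 and 14 cells at 0, and 57.7% of KO cells lay above its WT median, the lowest such share of the 8 genes whose WT median was above 0. To set the labels side by side at like depth, each cell was thinned at random to 20000 UMIs. Tap1 then had a UMI in 59.1% (52.8 to 65.1) of WT cells and 66.7% (60.2 to 72.7) of KO cells, against 74.5% and 76.9% before thinning. For Tap2 the shares were 54.1% (47.8 to 60.2) and 64.5% (58.0 to 70.7), and for Tapbp 76.8% (71.2 to 81.8) and 85.9% (80.8 to 90.1), against 67.2% and 76.1%, and 88.8% and 94.0%, before thinning. The intervals of the labels overlapped for each of the 3 genes at this depth. Thinning to 10000 UMIs was done on a larger set, 301 WT and 282 KO cells, which takes in cells left out above. There the intervals of Tap2 did not overlap (33.01 to 44.3 and 45.4 to 57.4), and the set of cells differed as well as the depth. At 20000 UMIs they did not overlap when at least 2 UMIs were asked for. Tap1 then had 33.8 to 46.0 and 47.7 to 60.8, and Tap2 had 27.5 to 39.3 and 39.6 to 52.8.

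Psmb9, the immunoproteasome subunit also called LMP2, had the largest ratio of the 9, with 197 CPM (4236 UMIs) in WT and 348 CPM (5631 UMIs) in KO and a log2 ratio of 0.82 (0.76 to 0.88). Psmb8, or LMP7, was the more abundant of the pair, with 685 CPM (14704 UMIs) and 995 CPM (16103 UMIs), and had a log2 ratio of 0.54 (0.51 to 0.57). Psmb10, the remaining inducible catalytic subunit, is not among the 9 but forms the immunoproteasome with them, and stood at 221 CPM (4756 UMIs) and 340 CPM (5499 UMIs), a log2 ratio of 0.62. In cells, Psmb9 had medians of 169 and 275 CPM, with 30 WT and 20 KO cells at 0, and Psmb8 had medians of 631 and 903 CPM with no cell at 0. After thinning, Psmb9 had a UMI in 78.0% (72.4 to 82.9) of WT cells and 88.9% (84.1 to 92.6) of KO cells. These intervals, which treat the cells of a pool as independent, did not overlap. They did without the cells with oocyte transcripts (72.5 to 84.5 and 83.9 to 92.5). With cells thinned to 10000 UMIs, the larger set of 301 WT and 282 KO cells, they overlapped as well, at 61.5 to 72.4 and 72.3 to 82.4. When at least 2 UMIs were asked for they did not, at 60.7 to 72.5 and 74.7 to 85.2. Before thinning the shares were 88.4% and 91.5%.

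The constitutive subunits that these 3 replace were slightly lower in the pool labelled KO, with log2 ratios of -0.07 for Psmb5, -0.04 for Psmb6 and -0.17 for Psmb7. The share of a subunit within its pair does not depend on how the pools are scaled. Psmb8 made up 71.0% (70.3 to 71.6) of the UMIs of Psmb8 and Psmb5 in WT and 78.8% (78.2 to 79.4) in KO. Psmb9 made up 26.8% (26.1 to 27.5) of the UMIs of Psmb9 and Psmb6 in WT and 39.8% (39.0 to 40.6) in KO. Psmb10 made up 55.9% (54.8 to 56.9) of the UMIs of Psmb10 and Psmb7 in WT and 68.5% (67.5 to 69.5) in KO. All 3 shares were higher in the pool labelled KO, by 7.85, 13.0 and 12.7 percentage points. Without the cells with oocyte transcripts the differences were 6.11 points for Psmb8 and 9.51 points for Psmb10. Per cell, among those with at least 5 UMIs of the pair, the median share of Psmb9 was 25% in 249 WT cells and 40% in 222 KO cells. Over the 31 genes of the constitutive proteasome, which include these 3, 8 were higher and 23 lower, none by over 1.5-fold, and the median log2 ratio was -0.10.

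**Figure D3:**
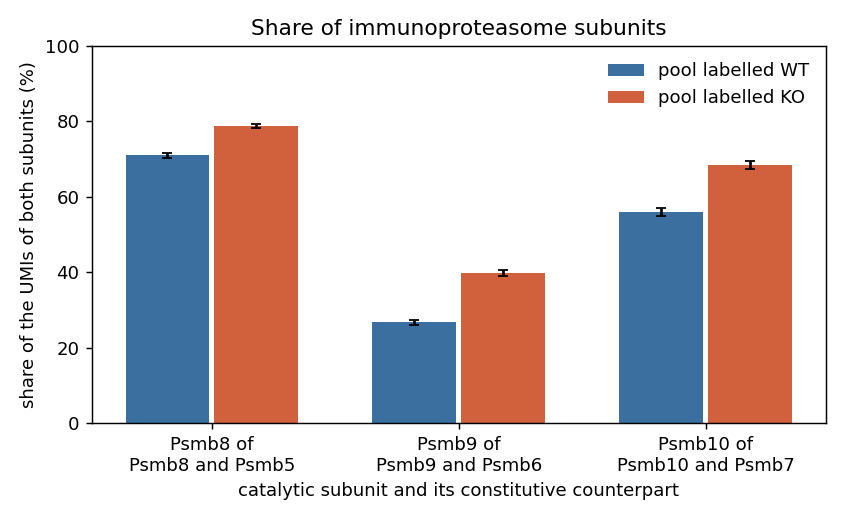
Share of the immunoproteasome subunit among the UMIs of itself and its constitutive counterpart (vertical axis, percent), in the pools labelled WT and KO. Bars start at 0 and error bars are exact 95% binomial intervals, and the KO bar is the higher in all 3 pairs, most for Psmb9 at 39.8% against 26.8%.

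Nlrc5, which switches on class I genes, was the least abundant of the 9, with 24.9 CPM (534 UMIs) in WT and 39.6 CPM (640 UMIs) in KO and a log2 ratio of 0.67 (0.50 to 0.84). Its median was 0 CPM in both labels, with 188 of 259 WT cells and 154 of 234 KO cells at 0. A single cell held 11.8% of its UMIs in WT and another held 18.9% in KO. After thinning, it had a UMI in 17.0% (12.6 to 22.1) of WT cells and 22.2% (17.1 to 28.1) of KO cells, intervals that overlapped, and before thinning in 27.4% and 34.2%. Its ratio fell under 1.5-fold without the cell with the most of its UMIs in each pool, at 0.57, in cells of at least 3000 genes and 30000 UMIs, at 0.55, and with thinned cells, at 0.31. The oocyte gene Zp3, which HSCs should lack, had a UMI in 48.3% of thinned WT cells and 6.41% of thinned KO cells, so the WT share of Nlrc5 lay below that of a gene which this cell type should not express. Where the Zp3 UMIs came from was not tested. The difference in Nlrc5 also varied with the depth of the cells. In cells of 20000 to 40000 UMIs its log2 ratio was -0.10 (-0.57 to 0.37), in those of 40000 to 80000 it was 0.49, and in those of 80000 or more it was 0.92.

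**Figure D4:**
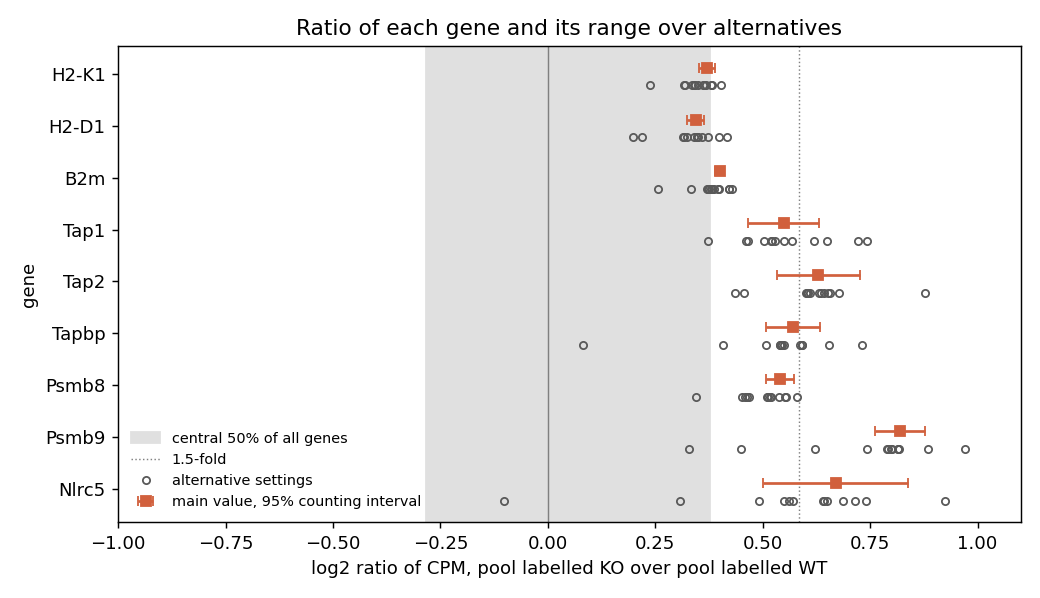
Log2 ratio of each gene, KO over WT, with its 95% counting interval (squares) and its value under the alternative settings (open circles) that give a ratio of pools or of means. The grey band holds the central 50% of all genes, from -0.28 to 0.38, and the dotted line is 1.5-fold. Circles stay above 0 for every gene except Nlrc5, which is at -0.10 in cells of 20000 to 40000 UMIs.

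By depth, the median of the 9 log2 ratios was 0.42 in cells of 20000 to 40000 UMIs (83 WT and 90 KO), 0.47 in those of 40000 to 80000 (75 and 84) and 0.58 in those above (101 and 60). Over the same cells, the median of all tested genes was 0.01, 0.05 and 0.03. The ratio of Psmb9 was 0.33, 0.74 and 0.97 in these 3 ranges, and that of Tapbp was 0.65, 0.08 (-0.05 to 0.21) and 0.73. B2m was at 0.42, 0.33 and 0.43, H2-K1 at 0.34, 0.36 and 0.38, and H2-D1 at 0.42, 0.20 and 0.40. The part of depth in these differences was not tested.

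The cells with over 1000 CPM of oocyte transcripts were set apart, since nearly all of them were labelled WT. Summed over the 9 genes, the 69 such WT cells held 12345 CPM and the other 190 held 12990 CPM. The other 231 KO cells held 17003 CPM. B2m stood at 7343 CPM in the 69 WT cells and 7619 CPM in the other 190, and Psmb8 at 579 and 724 CPM. When the cells above this cut were left out of both pools, the log2 ratio of H2-K1 changed from 0.37 to 0.32. That of B2m changed from 0.40 to 0.386 and that of Psmb8 from 0.54 to 0.46. All of these fell below their counting intervals. The other 6 stayed within theirs, at 0.35 for H2-D1, 0.62 for Tap1, 0.65 for Tap2, 0.59 for Tapbp, 0.81 for Psmb9 and 0.71 for Nlrc5. Without these cells the summed log2 ratio was 0.39, and 5 of the 9 exceeded 1.5-fold, Tap1 and Tapbp in addition. Of all tested genes, 16.8% were higher by as much under this setting. The 190 WT cells that remained still held 260 CPM of the oocyte genes, against 143 CPM in the 231 KO cells. After thinning, Zp3 had a UMI in 35.8% of the former and 5.63% of the latter. Leaving out the cells above the cut therefore lessened the difference in oocyte transcripts but did not remove it.

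Genes that act beside the 9 were counted from lists of the same pathway. Of 18 other genes of peptide processing and loading, 11 were higher and 7 lower, with a median log2 ratio of 0.12. Of these, 3 exceeded 1.5-fold, Psmb10 and the aminopeptidases Lnpep and Npepps, which trim peptides. Over all 9325 genes, 52.8% were higher by any size and 15.6% by over 1.5-fold, to which the counts of this list were close. The same shares over all genes stand beside the lists that follow, and 12.5% of all genes were lower by over 1.5-fold. Calr, the chaperone calreticulin, had a log2 ratio of 0.35 and the proteasome activator subunits Psme1 and Psme2 had 0.20 and 0.27. Pdia3, the thiol oxidoreductase of the loading complex, was at 0.01, the chaperone Canx at -0.13 and Erap1, which trims peptides in the endoplasmic reticulum, at -0.39. The higher levels were therefore not shared by all genes of the route.

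Among 24 other class I heavy chain genes, 12 were analysed here and 11 averaged 0.5 UMI per cell or more. Of these, 7 were higher and 4 lower, with a median of 0.35. H2-T23, which encodes the nonclassical molecule Qa-1, was the most abundant, with 242 CPM (5190 UMIs) in WT and 432 CPM (6992 UMIs) in KO, a log2 ratio of 0.84. Cd1d1, which presents lipids, had a log2 ratio of 0.60 and H2-Q4 and H2-Q5 had 1.21 and 0.83, the last 2 from 143 to 278 UMIs in a pool. H2-T10 at -0.71 and Mr1, which presents vitamin metabolites, at -0.68 were lower by over 1.5-fold. These 2 also had few counts, from 86 to 278 UMIs in a pool. Class I genes resemble each other, and the aligner that divided their reads was not given in the sources used here. For the 9 genes, the last 500 bases of the longest protein-coding transcript were read as 401 overlapping stretches of 100 bases per gene. None of these stood unchanged in another gene's transcripts. Stretches that differ by a few bases were not searched for. The ends of the other heavy chain genes were not examined in this way.

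Of 25 transcription factors and coactivators that act at class I or interferon-responsive promoters, 20 were higher and 5 lower, with a median of 0.39. Of these, 10 exceeded 1.5-fold, among them Irf7, Irf8, Stat2, Stat3, Rfx1, Rfx5, Rfxap, Creb1 and Ciita, and Nfyb, an NF-Y subunit, was lower by as much at -0.75. Single cells held a large part of some of these counts. In WT, 1 cell held 45.5% of the Irf8 UMIs, and in KO, 1 cell held 31.0% of the Rfx1 UMIs. For Ciita this share was 35.8% in WT and 36.7% in KO. Irf7, which amplifies the type I interferon response, had 12.3 CPM (264 UMIs) in WT and 48.3 CPM (781 UMIs) in KO, a log2 ratio of 1.97. Irf1, the interferon-inducible activator of class I genes, was at 0.13. Of the RFX trimer, Rfx5 was at 0.63 and Rfxap at 0.89, whereas Rfxank was at -0.10. All 12 interferon receptor, kinase and feedback genes were higher, with a median of 0.52, and Ifnar1, Ifnar2, Jak2, Tyk2 and Socs3 exceeded 1.5-fold.

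Of 44 interferon-stimulated genes with no role in antigen presentation, 40 were higher and 4 lower, 22 exceeded 1.5-fold, and the median was 0.59, close to that of the 9. Ifi203 had 197 CPM (4239 UMIs) in WT and 417 CPM (6752 UMIs) in KO, and Zbp1 had 15.2 and 44.99 CPM. The 4 most abundant of them had smaller ratios, with Ifitm1 at -0.02, Ifitm3 at 0.28, Ifitm2 at 0.03 and Ly6e at -0.09. Gbp5 was lower by over 1.5-fold at -0.79. Poly(I:C) induces interferon, and any difference in its dosing between the mice cannot be told apart from the label here.

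Markers of other cells that carry class I molecules were read beside these results. Of 6 T and NK cell genes only Nkg7 was analysed here, at 171 CPM in WT and 205 CPM in KO. A single cell held 14.4% of the Nkg7 UMIs in WT and another held 18.9% in KO. Of 4 B cell genes only Cd79b was analysed here, at 55.4 and 86.3 CPM. Of 6 macrophage genes, Lyz2 was at 222 and 253 CPM and C1qa at 1.44 and 6.43 CPM. The remaining defining genes of these lists, among them Cd3e and Csf1r, were not analysed here. All 7 genes of the class II list were higher in the pool labelled KO, with a median log2 ratio of 0.34 and a summed level of 1121 CPM in WT and 1454 CPM in KO. Their part in the class I levels was not tested. Among 10 HSC genes 5 were higher and 5 lower, with a median of 0.04.

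To see whether the 9 genes varied together from cell to cell, their levels as log2(CPM/100 + 1) were correlated over the cells of each label, as a description over cells that share libraries and depth. H2-K1, H2-D1 and B2m formed the closest group, with Pearson's r of 0.39 to 0.51 over 259 WT cells and about 0.40 for each pair over 234 KO cells. The other 33 pairs had a median r of 0.08 in WT, from -0.04 to 0.22, and of 0.06 in KO, from -0.05 to 0.21. In comparison, B2m and 123 other genes above 1000 CPM had a median r of -0.01 in WT and -0.05 in KO. Psmb8, with a mean of 62.5 UMIs per cell, had an r of 0.12 with B2m in WT and of 0.07 in KO. The counts of the other 5 genes were lower, and no finding is read from their weak correlations. The mean level of the 9 had an r of 0.04 with log2 UMIs per cell in WT and of 0.17 in KO.

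**Figure D5:**
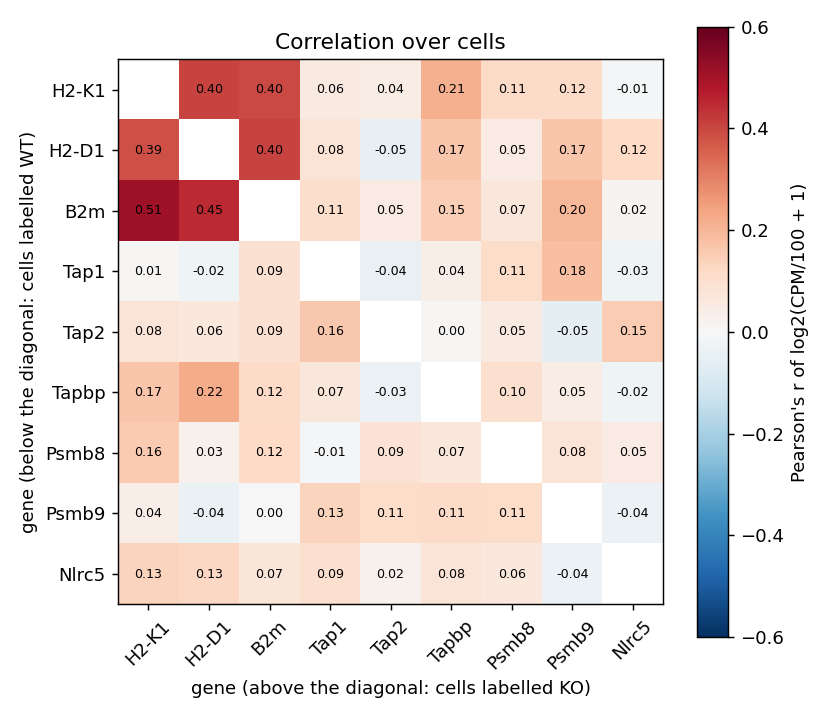
Pearson's r over cells between the levels, as log2(CPM/100 + 1), of each pair of genes, below the diagonal for 259 cells labelled WT and above it for 234 labelled KO. The pairs of H2-K1, H2-D1 and B2m run from 0.39 to 0.51 and the other pairs stay at or below 0.22.

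The 5 genes whose level over cells was most like the mean of the 9 were Iigp1, Tgtp2, Cd74, H2-T23 and Shisa5, by the mean of r within WT and within KO over 9316 other genes. Their r in WT and KO was 0.28 and 0.31 for Iigp1, 0.26 and 0.31 for Tgtp2, 0.28 and 0.28 for Cd74, 0.29 and 0.27 for H2-T23, and 0.30 and 0.20 for Shisa5. Over all these genes, the mean r had a 1st percentile of -0.13 and a 99th percentile of 0.13. Iigp1 and Tgtp2 are interferon-inducible GTPases, and Cd74 is the class II invariant chain.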

How the data were processed

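Sorted HSCs were profiled in 8 libraries. The authors counted UMIs per gene on a mouse transcriptome (build mm9 per the submitters' processing notes), removed poor cells and genes with a low average count, and deposited log2 of the normalized count plus 1. The aligner and how counts were normalized were not given in the sources used here. UMIs were recovered by raising 2 to each value, subtracting 1 and dividing by the smallest step of the cell, which gave whole numbers within 0.01 of a count for 100% of values above 0. UMIs were summed over kept cells of each label. Pooled counts under 3 were raised to 3 for ratios. Ratios and shares have exact (Clopper-Pearson) and CPM values exact Poisson intervals. Calls of 1.5-fold were made in genes that averaged 0.5 UMI per kept cell or more. No p-value was computed, as each label was 1 pool. No doublet caller was run.

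The 9 genes and the lists were chosen with earlier results of these data known. All 9 are named, together with list genes past 1.5-fold (some list genes are not reported here), the catalytic partners, the 5 most similar genes, Zp3 and Med23. Other genes named, and the ranking among abundant genes, were chosen after their values were seen. The recovery and the intervals were tested on simulated data. Python 3.11.15, numpy 2.4.6, pandas 2.3.3 and SciPy 1.17.1 were used. Alternatives were other cell filters, thinning, median-of-ratios, upper-quartile and TMM scaling, the authors' normalized values, means of log values, leaving out each gene's top cell or the cells with oocyte transcripts and, chosen after seeing the data, ranges of depth and a shorter oocyte list. No column was left without a label.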

Additional observations from a re-analysis of the deposited data

How the results depend on the processing

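All 9 genes were higher in the pool labelled KO under each of the 15 alternatives run on the ratios, except Nlrc5 in cells of 20000 to 40000 UMIs, at -0.10. How many exceeded 1.5-fold ranged from 0 to 5 around the 3 reported. The authors' normalized values and means of log2(CPM/100 + 1) gave 0, settings under which 8.83% and 0.204% of all tested genes were higher by as much, and it was 5 without cells with oocyte transcripts, where 16.8% of all genes were. With the authors' normalized values the median of all tested genes was at -0.14 and that of the 9 at 0.37. That median was 0.35 as means of log2(CPM/100 + 1), 0.43 with a pseudocount of 0.1, and 0.42 in cells of 20000 to 40000 UMIs, against 0.55.

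The summed log2 ratio of 0.41 was 0.43 in cells of at least 3000 genes and 30000 UMIs, 0.39 with thinned cells, 0.38 with median-of-ratios scaling, 0.39 with upper-quartile scaling, 0.38 with TMM scaling, 0.26 with the authors' normalized values, 0.40 as means of log values with a pseudocount of 1 or 0.1, 0.39 without cells with oocyte transcripts, 0.38 with the list that lacks Tle6 and Zbed3, 0.34 in cells of 40000 to 80000 UMIs and 0.44 in deeper ones. The difference in the Psmb8 share, 7.85 points, was 6.11 without cells with oocyte transcripts and 6.46 with thinned cells, that of Psmb9, 13.0 points, was 10.4 with thinned cells, and that of Psmb10, 12.7 points, was 9.51 without cells with oocyte transcripts. The causes were not tested. Of the values recomputed, 148 stayed within their counting interval, 116 lay outside it and 1 turned its direction. The depth ranges and the shorter oocyte list were chosen after seeing the data.

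No paired analysis was possible because cells are not tied to a library or replicate number, and leaving out a library was not run for the same reason. Differences between animals and libraries within a genotype are unknown, and the counting intervals, which are narrow for abundant genes, do not cover them. Many cells held no UMI of Nlrc5, Tap1 or Tap2, which limits their values per cell, and the ratios of Nlrc5, Psmb9 and Tapbp varied between ranges of depth.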
